A study of Rattus norvegicus with 2 samples.

Results

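H3K4me3 is a histone mark, 3 methyl groups on lysine 4 of histone H3, which SET1 and MLL family methyltransferases write mostly at gene promoters that are active or poised. It is usually strongest on the nucleosomes next to a transcription start site and weaker further out. Some promoters carry the mark over much longer stretches than others, and a peak caller may list such a stretch as 1 wide peak or as several shorter peaks in a row. The rows of short peaks are described here, for C6, an established rat glioma cell line.

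Fragmented domains were taken as runs of at least 3 H3K4me3 peaks in which each peak followed the last by 1000 bp or less and no peak reached 4000 bp. On the 20 autosomes 1344 domains met this rule, which is 6.33% of the 21240 regions left after joining all autosomal peaks in the same way. They were made of 4539 peaks, called pieces below, or 15.4% of autosomal peaks. The domains were chosen by peak positions, widths and gaps, so their number, widths and gaps are given as a description only. Scores did not enter the rule, but score is tied to width across peaks. The name "domain" stands for the rule. The peak list gives no signal inside the gaps, so a gap with no mark and a gap with a mark too weak to be called cannot be told apart.

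The data came from 1 chromatin immunoprecipitation library with an H3K4me3 antibody and 1 input DNA library without antibody, both from C6 cells with no stated treatment. Cells were grown with 10% serum to 90% confluence and fixed in 1% formaldehyde, and the chromatin was sheared to 300 bp on average before precipitation with 1 µg of antibody. The authors called peaks on the H3K4me3 library against the input, on genome build rn4, and each peak has a position and a score. The score is taken to be the p-value on a negative log10 scale, multiplied by 10. Scores in the whole list run from 50 to 3233.06. With 1 library there was no replicate, no test between conditions was possible, and the depth in reads is unknown. Bracketed ranges are exact Clopper-Pearson 95% intervals of a share. They cover counting error only, treat peaks and domains as independent, and say nothing of repeatability. Genes and sequences at the domains were not analysed here, so domains are named by position.

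Most domains had the fewest pieces the rule allows. There were 997 domains of 3 pieces (74.2%), 247 of 4, 67 of 5 and 33 of 6 or more, up to a single domain of 12. The number rests on weak peaks: with peaks scoring under 100 left out before joining there were 548 domains, and with peaks below the median score left out there were 240. The median domain was 4890.5 bp wide, and the middle 50% of domains lay between 3833 and 6066 bp. The narrowest was 1517 bp and the widest 21136 bp. Total width was 4392 bp in the median for 3 pieces, 6047 bp for 4, 7614 bp for 5 and 9227 bp for 6 or more. A total width of 4000 bp or more was reached by 954 domains (71.0%, 68.5 to 73.4%), although no piece was that wide. Only 24 domains were 10000 bp or wider.

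Pieces filled most of a domain. Peaks covered 86.9% of the median domain, with quartiles of 81.1 and 92.1%. The lowest value was 50.1% and the highest 99.9%. In 463 domains the pieces covered at least 90% of the span, and in 55 they covered less than 70%. The uncovered bases of a domain summed to 628 bp in the median. A piece was 1068 bp wide in the median, with quartiles of 736 and 1656 bp, and this hardly differed between domains of 3, 4, 5 and 6 or more pieces (1075, 1073, 1078 and 1026 bp). Domains with more pieces were thus wider, with pieces of about the same width.

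The gaps between pieces were mostly short. Of 3195 gaps, 910 (28.5%) were at most 100 bp, 641 were above 100 and up to 200 bp, 951 above 200 and up to 500 bp, and 693 (21.7%) above 500 bp. The median gap was 209 bp, shorter than the 300 bp average length of the sheared fragments. The number of gaps per 50 bp bin was 485 in the first bin, 285 from 151 to 200 bp, 127 from 451 to 500 bp and 47 in the last bin up to 1000 bp. A gap longer than 500 bp was present in 588 domains (43.8%), while in 266 domains (19.8%) every gap was at most 200 bp.

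**Figure D1:**
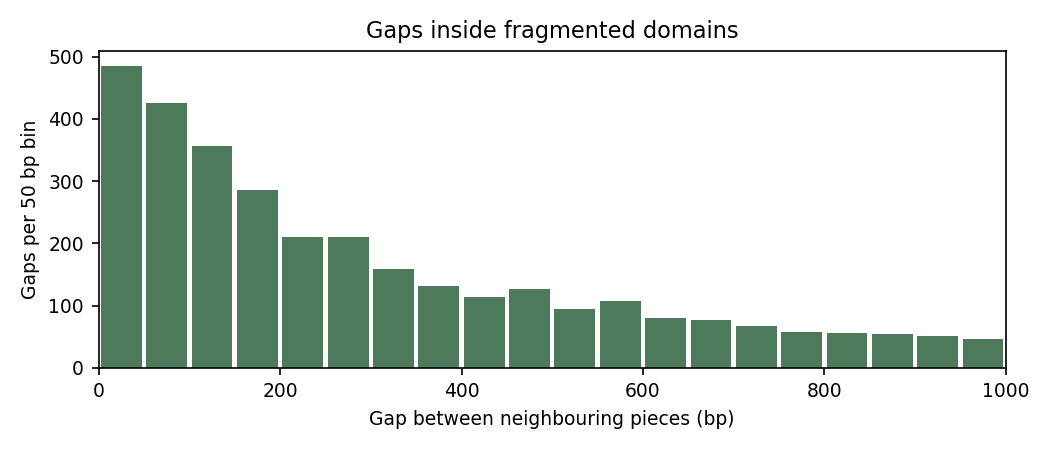
Number of gaps between neighbouring pieces (vertical axis) in bins of 50 bp (horizontal axis, bp), for the 3195 gaps inside the 1344 domains. The first bin is the fullest with 485 gaps, and the last holds 47. The axis ends at 1000 bp because longer gaps were not joined.

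Scores within a domain were mostly uneven, with the strongest more than 2 times the second in 803 of 1344 domains (59.7%, 57.1 to 62.4%). Best, second and weakest are picked by score, so they differ in part by construction. The best piece of a domain had a median score of 896.8, the second best 288.5 and the weakest 75.0. The best score was over 1000 in 582 domains (43.3%, 40.6 to 46.0%), while the second score was over 1000 in 75 (5.58%, 4.41 to 6.95%). The weakest piece scored under 100 in 942 domains (70.1%, 67.6 to 72.5%). Evenly strong or evenly weak domains were rare. All pieces scored 500 or more in 17 domains, and all scored under 100 in 22.

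Within a domain, the strongest score was 2.48 times the second strongest in the median, with quartiles of 1.49 and 4.73. This is a ratio of scores and not of mark density. It was above 5 in 315 domains and above 10 in 113, and below 1.5 in 343. The strongest piece was also the widest in 983 domains (73.1%, 70.7 to 75.5%). It took up 37.9% of the span of the median domain, from 40.3% among domains of 3 pieces to 21.0% among those of 6 or more. Domains of 6 or more pieces had the highest best score and the lowest weakest score. The median best was 835.2 for 3 pieces, 1115 for 4, 1079 for 5 and 1568 for 6 or more, and the median weakest was 78.5, 70.2, 72.2 and 63.3. The best and the worst of more pieces are further apart by construction.

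In domains of 3 pieces the strongest piece usually lay in the middle. It did so in 570 of 997 domains (57.2%, 54.0 to 60.3%), against 199 with the strongest piece on the left (20.0%, 17.5 to 22.6%) and 228 on the right (22.9%, 20.3 to 25.6%). The middle piece had a median score of 543.7, with quartiles of 209.3 and 984.2. The left piece had a median of 154.0 (quartiles 75.7 and 429.1) and the right piece 165.7 (80.9 and 468.1). The quartile ranges overlapped widely, but the middle piece scored above its left neighbour in 710 domains (71.2%) and above its right neighbour in 696 (69.8%). Left and right are by coordinate, since the strand of any gene is not known here. The ends were alike, with the left piece above the right one in 473 domains (47.4%, 44.3 to 50.6%).

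**Figure D2:**
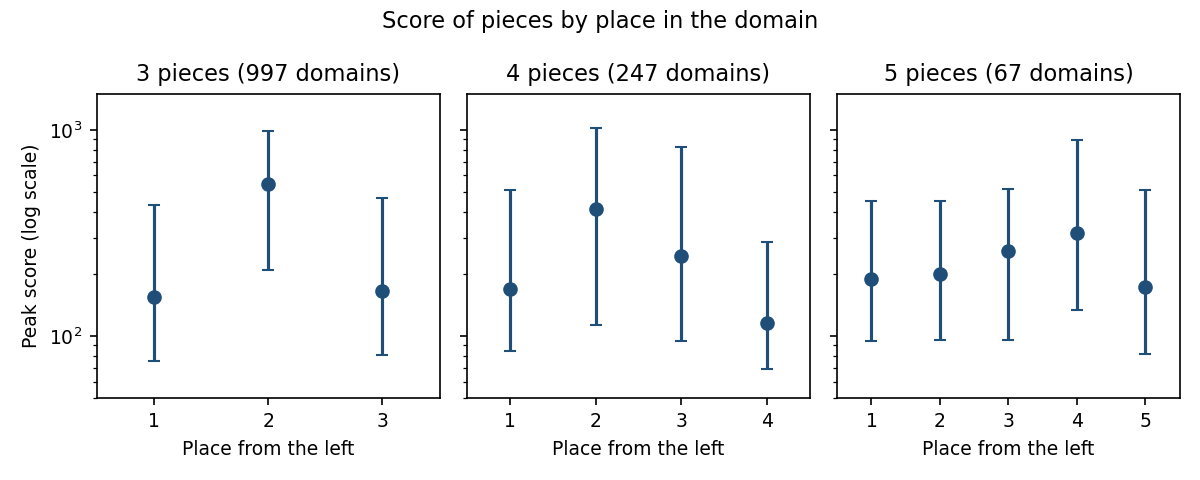
Median score (points, log scale) with lower and upper quartiles (bars) of pieces by their place from the left, in domains of 3, 4 and 5 pieces. In the 997 domains of 3 pieces the middle place is highest at 543.7, against 154.0 and 165.7 at the ends. The quartile bars overlap between places.

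The full order of scores showed the same thing. Of the 6 possible orders of 3 different scores, the most frequent was weakest, strongest, second, with 296 domains (29.7%, 26.9 to 32.6%). Its mirror image, second, strongest, weakest, followed with 274 (27.5%, 24.7 to 30.4%). A rise across all 3 pieces from left to right was found in 140 domains and a fall in 126. The weakest piece was in the middle in only 161 domains (16.1%, 13.9 to 18.6%), 88 with the strongest on the right and 73 on the left. Mirror images had overlapping intervals. With mirror images put together, the strongest piece was in the middle in 57.2%, scores rose or fell steadily in 26.7% (24.0 to 29.5%) and the weakest was in the middle in 16.1%, with intervals that did not overlap. No domain held 2 equal scores.

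**Figure D3:**
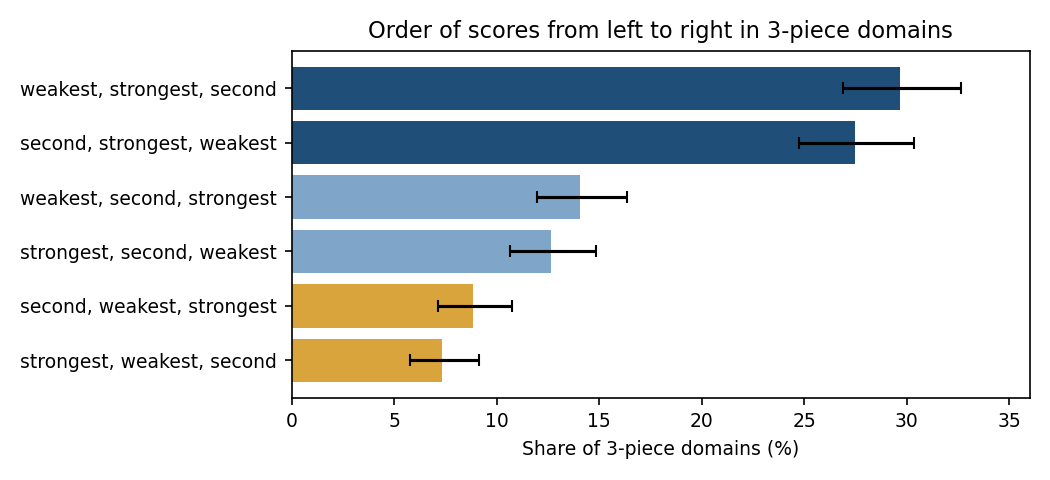
Share of the 997 domains of 3 pieces (horizontal axis, %) with each order of scores from left to right (vertical axis), with exact 95% intervals. Dark bars have the strongest piece in the middle (29.7 and 27.5%), light blue bars a steady rise or fall, and ochre bars the weakest piece in the middle (8.83 and 7.32%).

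Domains with the strongest piece in the middle also had the sharpest contrast. Their strongest piece scored 2.97 times the second in the median, against 1.78 times in domains with a steady rise or fall and 2.33 times in those with the weakest piece in the middle. Total widths were near one another, with medians of 4350, 4531 and 4264 bp, and so were the median best scores of 866.2, 815.8 and 760.5. The second score differed more, with medians of 241.0, 324.5 and 201.1. These classes are cut by score, so the contrast is a description.

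The middle piece also tended to be wider, but its score stood out where widths were alike. It was 1397 bp wide in the median, the left one 975 bp and the right one 957 bp, and it was the widest in 516 of 997 domains (51.8%, 48.6 to 54.9%). In 160 domains the middle piece was within 200 bp of the wider end piece. In 103 of these it was the strongest (64.4%, 56.4 to 71.8%), and the wider end piece was the strongest in 45 (28.1%, 21.3 to 35.8%). A middle piece that was the widest of its domain was also the strongest in 441 of 516 cases (85.5%, 82.1 to 88.4%), against 294 of 481 for an end piece that was the widest (61.1%, 56.6 to 65.5%). A middle piece that was the narrowest was still the strongest in 29 of 230 cases (12.6%, 8.61 to 17.6%), against 23 of 764 for an end piece that was the narrowest (3.01%, 1.92 to 4.48%).

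Within each width class the median score was higher inside a domain than at its ends, though widths can differ within a class. From 500 to under 1000 bp the median score was 128.5 for 519 inner pieces and 95.2 for 1272 end pieces. From 1000 to under 2000 bp it was 521.0 for 706 inner pieces and 277.7 for 966 end pieces. From 2000 to under 4000 bp the values were 1219 for 471 inner and 974.3 for 318 end pieces, and under 500 bp they were 81.2 for 155 and 59.6 for 132. Relative to the end pieces, the difference was largest from 1000 to under 2000 bp. In that class the 4597 lone peaks, with no other peak within 1000 bp, had a median of 236.2, near the end pieces, and the 3279 peaks of 2-peak regions had 454, near the inner pieces. From 2000 to under 4000 bp lone peaks had a median of 1126, between inner and end pieces, and peaks of 2-peak regions had 1020, nearer the end pieces. Peaks of 2-peak regions had 119.6 from 500 to under 1000 bp, nearer the inner pieces, and 63.6 under 500 bp, nearer the end pieces.

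**Figure D4:**
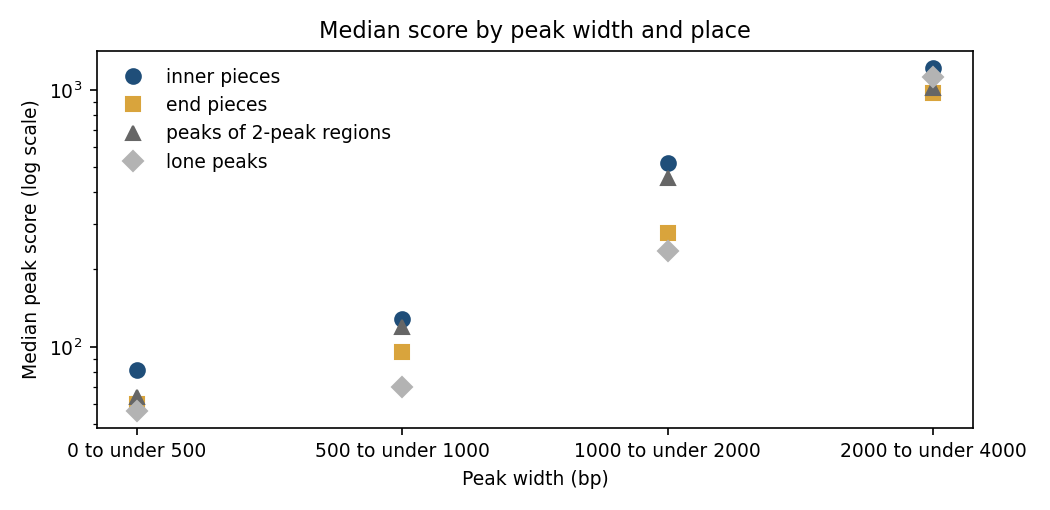
Median score (log scale) of inner pieces, end pieces, peaks of 2-peak regions and lone peaks on the autosomes, in 4 classes of peak width (bp). Inner pieces lie above end pieces in every class, with 521.0 against 277.7 from 1000 to under 2000 bp. No error bars are drawn because peaks are not replicates.

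In longer rows too the strongest piece mostly lay at an inner place. Among the 247 domains of 4 pieces it was at place 1 in 45, place 2 in 96, place 3 in 77 and place 4 in 29, so 173 (70.0%, 63.9 to 75.7%) had it at an inner place. Among the 67 domains of 5 pieces, 53 had it inside (79.1%, 67.4 to 88.1%), and the fourth place was the most frequent with 22. Among the 33 domains of 6 or more pieces, 8 had it at an end. More pieces give more inner places, so these shares are not comparable with one another. Of 4 places 2 are inner, and of 5 places 3 are, and the shares for 4 and 5 pieces lay above these. With 6 or more pieces most places are inner, so 8 of 33 at an end is near what the number of places alone gives. Measured along the span, the centre of the strongest piece lay at 50.5% of the domain from the left in the median, with quartiles of 36.8 and 63.8%. The stretch from 40 to 60% of the span held the centre of the strongest piece in 571 domains (42.5%, 39.8 to 45.2%), the first 20% in 159 and the last 20% in 149. A wide piece cannot have its centre close to an end, which limits the outer classes.

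Scores were much lower 1 step from the strongest piece and differed little beyond that. In the 347 domains of 4 or more pieces the strongest piece had a median of 1115, the pieces next to it 161.8, those at the second step 106.9, those at the third step 121.6 and those at the fourth step 109.5. The step from the strongest piece is large by construction, since it is the maximum. The widths of pieces at the 4 steps were alike, at 927.5, 906, 917 and 930 bp. Where 2 pieces lay on the same side of the strongest, the nearer scored above the farther in 487 of 802 cases (60.7%, 57.2 to 64.1%). The left and right neighbours of a strongest piece inside the row were even over all domains, with the left one higher in 409 of 821 (49.8%).

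Domains of 3 pieces mostly had a single score maximum, and longer rows more often had several. With more pieces a smaller part of the possible orders has 1 maximum. In 836 of 997 domains of 3 pieces the scores had 1 maximum (83.9%), a shape that 4 of the 6 possible orders have. The share was 128 of 247 for 4 pieces (51.8%), where 8 of 24 possible orders have 1 maximum, and 19 of 67 for 5 pieces (28.4%), where 16 of 120 do. Of the 33 domains of 6 or more pieces, 3 had a single maximum, 13 had 2, 16 had 3 and 1 had 4. Most domains of 6 or more pieces had 2 or 3 score maxima with weaker pieces between them. Rows of that length have several maxima in most possible orders, so this is a description and not a trait of these domains.

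The gap beside the strongest piece was not clearly shorter or longer than the gaps further off. In the 570 domains of 3 pieces with the strongest in the middle both gaps lie beside it, so they allow no such comparison. With joining only up to 500 bp, the strongest of 3 was in the middle in 53.1%, against 57.2% with joining up to 1000 bp. Whether gap length is related to the place of the strongest piece was not tested. In the 427 domains of 3 pieces with the strongest at an end, the gap beside it and the gap further off both had a median of 206 bp, and the gap beside it was the shorter one in 203 (47.5%, 42.7 to 52.4%). In the 347 domains of 4 or more pieces, the mean gap beside the strongest piece was 258 bp in the median and the mean of the other gaps 240 bp. Across the 1344 domains the largest gap and the best score had a Spearman rho of 0.00, while total width and best score had 0.62, and the widest piece and best score 0.70. Domains are not independent replicates and share 1 library, so these values describe the list only.

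The widest domain, chr3:164125506-164146641, had 12 pieces and spanned 21136 bp. Its scores began at 198.2, 413.2 and 171.9, went through a long weak stretch from 52.0 to 268.7 over the next 6 pieces, and came to 584.5, 3092 and 219.8 at the right end. The strongest piece, at place 11, was 3877 bp wide, lay 40 bp after the piece of 584.5 and was 5.29 times as high in score. This domain thus had a strong right part and a weak left part. Its longest gaps, 936 and 688 bp, lay before and after the ninth piece, which scored 87.6.

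On chromosome 7 lay 2 wide domains next to each other, 2422 bp apart. The first, chr7:11043309-11059596, had 9 pieces over 16288 bp, with a highest score of 1689 at the second place and another maximum of 891.1 at the eighth. The second, chr7:11062019-11076906, had 9 pieces over 14888 bp, with 2337 at the second place and 622.9 at the eighth. Both rows thus had their strongest piece second from the left and a lesser maximum second from the right. Between these maxima the scores ran from 71.7 to 546.0 in the first domain and from 122.9 to 325.5 in the second.

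Other wide domains differed in how the strength was spread. The 4 pieces of chr10:109650751-109664915 scored 1160, 1224, 1272 and 334.0 over 14165 bp. The first 3 were nearly level and each over 3000 bp wide. The domain chr10:57524266-57538905 had 2 maxima of near-equal height, 1408 at the second and 1455 at the fourth of 7 pieces, parted by a piece of 250.8. In chr7:141001691-141016160 the strongest of 8 pieces, 1400, was the leftmost, and the sixth and seventh reached 1076 and 993.6. These 3 domains had 2 or more pieces of similar strength.

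In 2 others the second score was far below the first, as it was in the domain of 12 pieces and the second of the chromosome 7 pair. In chr1:156699563-156713610 the third of 6 pieces scored 1948, the fourth 510.0, and the others from 87.4 to 127.9. In chr5:131006507-131019933 the fifth of 7 pieces scored 2025 and the others from 64.2 to 573.0. The remaining 2 were strong at several places. In chr2:242496495-242509659 the scores were 462.7, 1932, 2091, 1180, 168.0 and 104.3 from left to right, a single rise and fall. In chr16:61110377-61123363 they were 500.9, 1927, 3140, 663.1 and 1133, and no piece scored under 500. Of the 10 widest domains, 9 had their strongest piece at an inner place, but most places in such rows are inner.

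**Figure D5:**
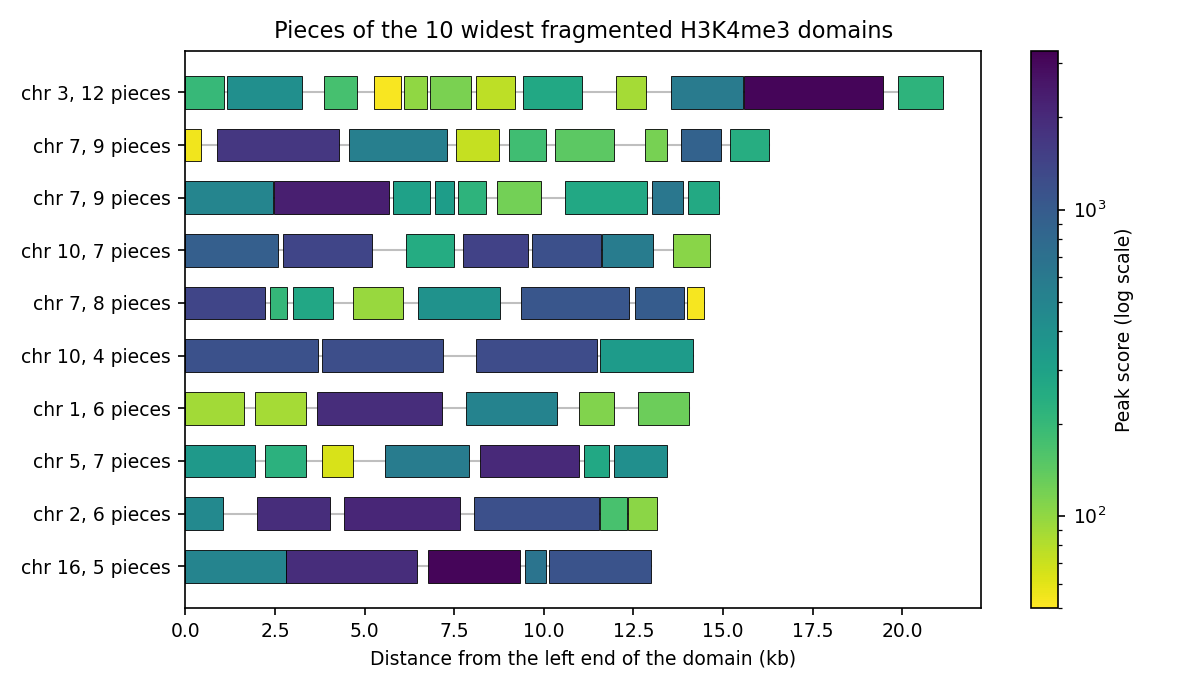
Pieces (boxes) of the 10 widest domains by distance from the left end of each domain (kb), coloured by peak score on a log scale, with gaps as grey lines. The top row is the domain of 12 pieces with its strongest piece (3092) near the right end, and the next 2 rows are the neighbouring domains of chromosome 7.

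Among the 5 domains with the most pieces was also chr6:111004811-111015330, with 9 pieces over 10520 bp. Its scores were 74.5, 912.4, 577.6, 143.9, 99.0, 63.3, 438.3, 100.1 and 282.3. It had 3 maxima, the strongest again at the second place, and the pieces at places 2 and 3 were only 3 bp apart.

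By the scores as listed, the 5 highest best scores were found in domains of 3 or 4 pieces that were wider than the median domain, from 5466 to 7891 bp. The highest score of the list, 3233.06, equals the value of the smallest positive double-precision number on the scale assumed here. It was the score of the middle piece of chr10:15653368-15660312, with 66.4 on its left and 721.4 on its right. The same score was the rightmost piece of chr2:218043652-218049117, after 105.3 and 71.1. The 4 pieces of chr8:69830725-69838489 scored 87.9, 423.6, 3210 and 225.7, and those of chr7:67643554-67651444 scored 1271, 3183, 564.9 and 668.3. The middle piece of chr1:177224634-177231751 scored 3150, between 212.6 and 583.3. In these 5 domains 4 had the strongest piece at an inner place. A score of exactly 3100 was shared by 230 peaks of the list, more than any other score, and was the best score of 8 domains. Whether it is a true score was not tested, so the order of the 8 domains at 3100 and the 8 above it is uncertain. Domains at 3100 included rows of 6 pieces, such as chr3:4666416-4678186. The number of pieces in the highest-scoring domains is therefore uncertain too. Among the pieces of domains 8 of 4539 had this score (0.176%, 0.0761 to 0.347%), against 222 of 25004 other autosomal peaks (0.888%, 0.775 to 1.01%). Peaks of 4000 bp or more are among the latter by the rule.

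The lowest best scores belonged to domains of 3 narrow pieces close to the lowest score of the list. In chr3:161157962-161160768 the scores were 50.2, 53.1 and 52.0, and in chr19:50594832-50597472 they were 52.6, 50.8 and 56.5. The best scores were 59.3 in chr10:105251316-105254138, 60.3 in chr5:62811616-62814680 and 63.4 in chr1:245473889-245477539. These 5 domains were from 2641 to 3651 bp wide and had from 50.1 to 71.1% of their span covered. This coverage lay below the lower quartile of all domains, 81.1%.

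Steady gradients over more than 3 pieces were few, as they are among the possible orders. Among the 347 domains of 4 or more pieces, 20 rose or fell in score from one end to the other without a break, and 3 of these had 5 pieces. The other 17 were among the 247 domains of 4 pieces. Only a full rise and a full fall are steady, out of 24 possible orders for 4 pieces and 120 for 5. For 4 pieces the share of domains was near that of the possible orders. In chr4:7108047-7119295 the scores fell from left to right through 2382, 1073, 908.8, 219.8 and 67. In chr4:80457527-80466702 they fell through 1380, 450.6, 420.3, 260.1 and 124.8. In chr2:181584682-181593605 they rose through 241.2, 296.8, 493.0, 890.1 and 1410. The 2 widest gradients of 4 pieces both rose, through 137.7, 386.9, 717.1 and 2019 in chr2:181169391-181179080, and through 93.8, 148.6, 340.9 and 366.4 in chr3:169270260-169278245. The gradients of 5 pieces had gaps of at most 338 bp.

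The contrast between the strongest and second piece ran from near equality to more than 40 times. The smallest ratio, 1.00, was that of chr10:12811974-12817856, where 1738 and 1740 stood at the ends around a middle piece of 846.5. In chr20:22182176-22187470 the middle and right pieces scored 255.2 and 254.9 after a left piece of 60.0, and in chr9:20763798-20769855 they scored 1442 and 1434 after 83.7. The largest ratio, 43.8, was that of chr19:23121169-23126276, with scores of 50.7, 53.2 and 2332. Next were chr9:57101319-57106007 (2397, 50.8 and 56.6; ratio 42.4) and chr3:149077052-149082961 (65.2, 60.5 and 2395; ratio 36.7). In these 3 domains the strongest piece was at an end and over 3000 bp wide, and the other pieces were close to the lowest score of the list.

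The limit of 4000 bp cut through a continuous range of widths. Just inside it were domains with widest pieces of 3992, 3985 and 3975 bp, whose best scores were 2259, 2629 and 2053. Just outside were regions with widest pieces of 4011, 4020 and 4028 bp and best scores of 1330, 1849 and 1161. At the joining distance, 47 gaps inside domains were from 951 to 1000 bp. From a domain to the next region, 16 gaps were from 1001 to 1050 bp. These counts come from unlike sets. A joined gap can itself bring a row to the fewest pieces the rule allows. A longer gap was counted only beside a row that met the rule without it. Whether gaps become fewer at the joining distance can therefore not be read from these counts.

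Beside the other joined regions of the autosomes, fragmented domains lay between the regions of 2 peaks and the regions with a wide peak in best score and total width. In weakest score, score ratio and covered share they did not. The 223 regions of 3 or more peaks that held a peak of 4000 bp or more had a median best score of 2560 and a median total width of 8816 bp. The 4509 regions of 2 peaks had a median best score of 665.9 and a width of 2892 bp, and the 15164 lone peaks had a score of 116.6 and a width of 988 bp. The median weakest piece scored 75.0 in fragmented domains, 83.6 in regions with a wide peak and 141.3 in regions of 2 peaks. The strongest score was 2.48, 4.70 and 2.89 times the second in the median in the same order. Peaks covered 86.9, 93.7 and 92.3% of the span. On these 3 measures fragmented domains had the lowest values of the 3 classes. The weakest of more pieces is lower by construction. Covered share follows from the widths and gaps that define the classes. In a region of 2 peaks the second score is also the weakest, and wide peaks score high. The ratio is therefore also set in part by the classes. The strongest of 3 pieces was in the middle in 81 of 141 regions with a wide peak (57.4%, 48.8 to 65.7%), close to the 57.2% of fragmented domains. In the regions of 2 peaks, where there is no middle, the left peak was the stronger in 48.2% (46.8 to 49.7%). Number of peaks and width define these classes, and score follows both, so no test was made.

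Fragmented domains of 4000 bp or more had weaker best pieces than unbroken peaks of that size. The 954 such domains, 5508 bp wide in the median, had a median best score of 1100 (quartiles 737.8 and 1564), and the 391 lone peaks of 4000 bp or more, 4791 bp wide in the median, had 2061 (quartiles 1520 and 2777). A piece is narrower than 4000 bp by the rule, and narrower peaks scored lower. By width class, all pieces of domains had a median of 102.1 and lone peaks 70.0 from 500 to under 1000 bp, 378.6 and 236.2 from 1000 to under 2000 bp, and 1134 and 1126 from 2000 to under 4000 bp. Widths can still differ within a class.

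The domains were spread over all 20 autosomes, with some difference in their share of the joined regions. The share of joined regions that were fragmented domains ran from 4.66% on chromosome 12 (3.39 to 6.22%) to 7.16% on chromosome 7 (5.87 to 8.63%). The interval of chromosome 12, the lowest of 20, did not reach the 6.33% of all autosomes together. Chromosome 1 held the most, 174 domains, and chromosome 18 the fewest, 30. On chromosome 10 there were 124 (7.11%), on chromosome 2 there were 86 (6.11%) and on chromosome 15 there were 37 (5.77%). The middle was the most frequent place of the strongest of 3 pieces on 20 of 20 autosomes, with shares from 45.5% on chromosome 11 (24.4 to 67.8%, 22 domains) to 69.0% on chromosome 7 (56.9 to 79.5%, 71 domains). Median best scores ran from 737.6 on chromosome 16 to 1070 on chromosome 7, and median widths from 4551 bp on chromosome 20 to 5237 bp on chromosome 12. Another joined region, fragmented or not, lay within 5 kb of 369 domains (27.5%, 25.1 to 29.9%), near the 25.0% of regions of 2 peaks and the 25.1% of lone peaks, and below the 40.8% (34.3 to 47.6%) of regions with a wide peak.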

How the data were processed

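Per the file header, the authors used MACS to call peaks of the precipitated DNA over the input. The build is rn4, per the submitters' processing notes. The titles name SOLiD sequencing, while the protocol text also speaks of ChIP-chip. Aligner, read numbers, and the version and settings of MACS were not stated in the labels or the file. The deposited score was taken to be the peak's p-value on a negative log10 scale, multiplied by 10, because the highest deposited score, 3233.06, equals this value for the smallest positive double-precision number. Gaps were taken as the next start minus the previous end, and printed starts count from 1. Joining, medians and shares used Python 3.11.15 with pandas 2.3.3, SciPy 1.17.1 and NumPy 2.4.6, and figures used matplotlib 3.10.9. The joining and the place of the strongest piece were tested on simulated peaks, where the planted numbers were recovered. The domains, measures and lists were chosen with earlier results of these data known. Named domains are the 10 widest, the 5 with the most pieces, the 5 highest and 5 lowest best scores, the 5 longest steady gradients, the 3 smallest and 3 largest score ratios, and the 3 regions on either side of the width limit. There were 8 alternative settings, given in the closing section. Reference tables for genes and promoters are on another assembly, GRCr8, and were not used.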

Additional observations from a re-analysis of the deposited data

How the results depend on the processing

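Under the settings tried, the strongest of 3 pieces was in the middle in 49.8 to 59.1% of domains. The share of 3-piece domains with the strongest in the middle was 53.1% with joining up to 500 bp, 53.5% for peaks scoring 100 or more, 49.8% for peaks at or above the median score, and stayed within its interval under the other 4 settings. The share with the strongest at an end was 43.5, 44.7 and 47.5% under the same 3 settings and 27.7% for domains of 4 or more pieces. Peaks scoring 100 or more gave 548 domains, a width of 5153 bp, a gap of 184 bp, 89.0% covered, a best score of 1040, a ratio of 2.22 and 66.2% with the strongest piece widest. Peaks at or above the median score gave 240 domains, 5883.5 bp, 174 bp, 90.3%, 1203, 1.85 and 61.7% in the same order. These filters remove weak pieces, so fewer rows of 3 are left. Domains of 4 or more pieces numbered 347, with 6406 bp, 85.6% covered and a best score of 1115. Joining up to 500 bp gave 4494 bp, a gap of 147 bp and 91.4% covered, and joining up to 2000 bp gave 5248 bp, 272 bp and 82.7%. With no piece of 3000 bp or more the values were 4531 bp, 86.1% covered, a best score of 792.0, a ratio of 2.27 and 69.9% with the strongest widest. With no limit on width they were 5204 bp, 88.0%, 1030, 2.68 and 76.0%. Peaks at least 500 bp wide gave 5048 bp. In all, 42 of 71 values moved outside their interval, or by over 1.5 times for the number of domains. Intervals of medians are order-statistic intervals at 95%. No paired analysis was possible because only 1 library has peaks. The read depth is unknown and the authors' threshold was not stated. How far pieces near the lowest score stand above background is therefore known only from their scores. Weak pieces decide whether many rows count as 3.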

Other observations

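X was outside the rule but held rows of short peaks as well. Of its 416 joined regions, 40 had 3 or more peaks (9.62%, 6.96 to 12.9%), and 0 of these 40 held a peak of 4000 bp or more. A count of 0 leaves room for a share of about 7.5%, set at 3 counts, which is an approximation and not an exact interval. On the autosomes 223 of the 1567 regions of 3 or more peaks held such a peak. On the autosomes 7.38% of joined regions had 3 or more peaks (7.03 to 7.74%), with or without a wide peak, and 6.33% were fragmented domains (6.00 to 6.66%). The strongest of 3 pieces was in the middle in 10 of 32 such regions on X (31.2%, 16.1 to 50.0%), against 57.2% on the autosomes (54.0 to 60.3%). The median ratio of strongest to second score was 2.26 on X and 2.48 on the autosomes. These comparisons with X were made after the values were seen, and the differences were not tested.

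Fragmented domains also occurred next to one another, in cases picked after the values were seen. There were 16 cases of neighbouring domains 5 kb or less apart. The pair on chromosome 7 from 11043309 to 11076906 had 18 pieces over 33598 bp. A pair on chromosome 3, chr3:4658993-4665173 and chr3:4666416-4678186, had 12 pieces over 19194 bp with 1242 bp between the domains. Rows of 3 domains were found on chromosome 4, from 80503140 to 80518523, and on chromosome 12, from 23227032 to 23250318.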
